A study of Rattus norvegicus with 10 samples.

Results

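Fatty acid binding proteins were followed in the mammary gland of rats fed 1 of 3 purified diets. The family was taken as every probe set of the array whose annotated symbol is Fabp and a number. It held 9 probe sets of 9 genes, out of 10411 genes and 15866 probe sets without controls: Fabp1, Fabp2, Fabp3, Fabp4, Fabp5, Fabp6, Fabp7, Fabp9 and Fabp12. The rats were Sprague-Dawley females studied at postnatal day 50, and each array of the Affymetrix RAE230 design carried RNA pooled from the fourth mammary glands of 2 animals. There were 4 arrays of the SPI diet (replicates 2, 3, 4 and 5), 3 of the GEN diet (replicates 1, 3 and 5) and 3 of the CAS diet (replicates 1, 2 and 3). GEN is genistein, an isoflavone of soy that binds estrogen receptors. From knowledge of the study, SPI stands for soy protein isolate and CAS for casein, the diet the others are set against. The sources used here name neither the dose nor the length of feeding. The labels describe parallel labelled targets from each RNA pool without saying which arrays share a pool, so the p-values may partly measure technical spread.

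Fatty acid binding proteins are small cytosolic proteins that hold a long-chain fatty acid, or a related lipid, inside a barrel closed by a helical lid. They carry lipids from the cell membrane to sites of storage, oxidation and membrane synthesis, and some deliver ligands to the PPAR receptors of the nucleus. Fabp3, known from heart and skeletal muscle, is also the form of the mammary epithelium, where it was once described in cattle as a mammary-derived growth inhibitor. Fabp4 is the form of adipocytes, capillary endothelium and macrophages, and Fabp5 that of epidermis and several other cell types. Fabp1 belongs to liver, Fabp2 to the intestine, Fabp6 to the ileum as a bile acid carrier, Fabp7 to brain and glia, and Fabp9 to the testis.

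The labels call the source epithelial cells, while the labelling protocol names the gland and the design text also speaks of colon. The luminal keratin Krt8 had signals of 1409 to 2941 on SPI, 3461 to 5260 on GEN and 1791 to 4418 on CAS. The endothelial marker Pecam1 had 1704 to 2822 on SPI, 1523 to 2137 on GEN and 1531 to 2427.5 on CAS. Of the adipocyte markers, 6 of 9 on the array passed the signal filter, and Lep, Plin1 and Pck1 did not. In such bulk RNA, fewer cells of a type and less RNA per cell cannot be told apart. The CAS 1 array stood apart in skeletal muscle RNA: its summed signal over 19 muscle markers was 10631, against 2905 to 3673 on the other 9 arrays. The SPI 4 array had a beta-actin 3'/5' signal ratio of 7.77, a high value marking shortened RNA, against 2.83 to 5.22 on the other arrays. The median signal per array was 222.8 to 256.7, and the number of arrays limits the precision of every value.

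The values are MAS5 signals on a linear scale, which combine the probe pairs of a probe set and are scaled per array. A probe set was tested if its mean log2 signal over the 10 arrays lay outside the lowest 40%, and the dimmest tested had a geometric mean signal of 162. Of the 9 Fabp probe sets, 4 passed: those of Fabp3, Fabp4, Fabp5 and Fabp9. The diets were compared with limma on log2 signal, in 1 fit of all 10 arrays, and p-values were adjusted with Benjamini-Hochberg over the 9520 probe sets tested. Signals of different probe sets are not on a common scale, so each gene is compared only with itself.

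In RefSeq (assembly GRCr8) the genes of Fabp12, Fabp4, Fabp9, Pmp2 and Fabp5 follow each other in this order on chromosome 2, with no other protein-coding gene between them, while Fabp3 lies on chromosome 5. Pmp2 codes for the lipid binding protein of peripheral myelin, and no probe set of this array was named for it. The table of promoters used here held 5 of the 9 genes, Fabp1, Fabp2, Fabp3, Fabp6 and Fabp7. The Fabp3 sequence is shown because Fabp3 had the smallest p-values of the family. It is the stretch of 152 bases directly before the most upstream annotated start, at chr5:147935875-147936026 of GRCr8 on the plus strand, from RefSeq:
Fabp3 upstream: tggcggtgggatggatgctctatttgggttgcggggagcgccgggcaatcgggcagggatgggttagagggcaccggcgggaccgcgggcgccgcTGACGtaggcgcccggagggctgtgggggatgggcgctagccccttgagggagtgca
Capitals mark the core of a cAMP response element, TGACG, which begins 57 bases before that start. Of the 33469 promoters of the table, 9.28% held this motif on either strand in their first 152 bases. The Fabp3 stretch had a GC content of 71.05%, and 93.59% of the promoters had a lower one over the same length. The windows of these promoters run from 250 bases before to 50 bases after a start. Their first 152 bases thus stop short of that start, while the Fabp3 stretch ends directly at an annotated one. The shares given here are therefore not like for like with Fabp3. The other 8 motifs searched on both strands were not in the Fabp3 letters. They were the DR1 direct repeat of PPAR/RXR (in 0.0269% of promoters), the single nuclear receptor element AGGTCA (8.46%), the Stat5 site TTCNNNGAA (4.95%) and the palindromic estrogen response element (0.0149%). The general motifs were the E box CANNTG (48.7%), the TATA box TATAAA (7.76%), the Sp1 box GGGCGG (16.8%) and the CCAAT box CCAAT (21.8%). The direct repeat contains AGGTCA.

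Fabp3 had the largest separation from CAS relative to its spread among the family. Its signals were 1562, 1695, 669 and 1192 on SPI arrays 2, 3, 4 and 5. On GEN arrays 1, 3 and 5 they were 1679, 1174 and 2503. On CAS arrays 1, 2 and 3 they were 769, 296 and 312.5. All 3 GEN arrays lay above all 3 CAS arrays, and 3 of the 4 SPI arrays did. SPI 4, the array with the highest actin ratio, was below CAS 1, the array with the muscle signal.

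Fabp3 averaged 1785 ± 671 on GEN (SD, n = 3) against 459 ± 269 on CAS (SD, n = 3). The log2 difference of GEN against CAS was 2.04 ± 0.41 (SE), a 4.11-fold ratio of geometric means, with a 95% interval of 1.16 to 2.92. In limma the unadjusted p was 0.000243, the fifth smallest of the comparison, and the adjusted p was 0.462. On SPI it averaged 1279 ± 459 (SD, n = 4), and the log2 difference of SPI against CAS was 1.54 ± 0.38 (SE), with an interval of 0.72 to 2.36. The unadjusted p there was 0.00140 and the adjusted p in limma 0.582. Neither comparison passed, and both used the same CAS arrays.

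With the mean of SPI and GEN set against CAS, Fabp3 differed by 1.79 ± 0.34 (SE) on the log2 scale. limma gave this difference an adjusted p of 0.283, and 0.0657 to 0.999 over 20 alternatives. Over the 3 diets its F statistic was 13.9, with an adjusted p of 0.389. The order of the Fabp3 means was GEN, SPI and CAS. Between the upper pair the log2 difference of SPI against GEN was -0.50 ± 0.38 (SE), with an interval of -1.32 to 0.32 and an adjusted p of 0.739 in limma. The interval includes levels on SPI below and above those on GEN. With the replicate number as a block the difference was 0.04, so the order of SPI and GEN was not settled.

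**Figure D1:**
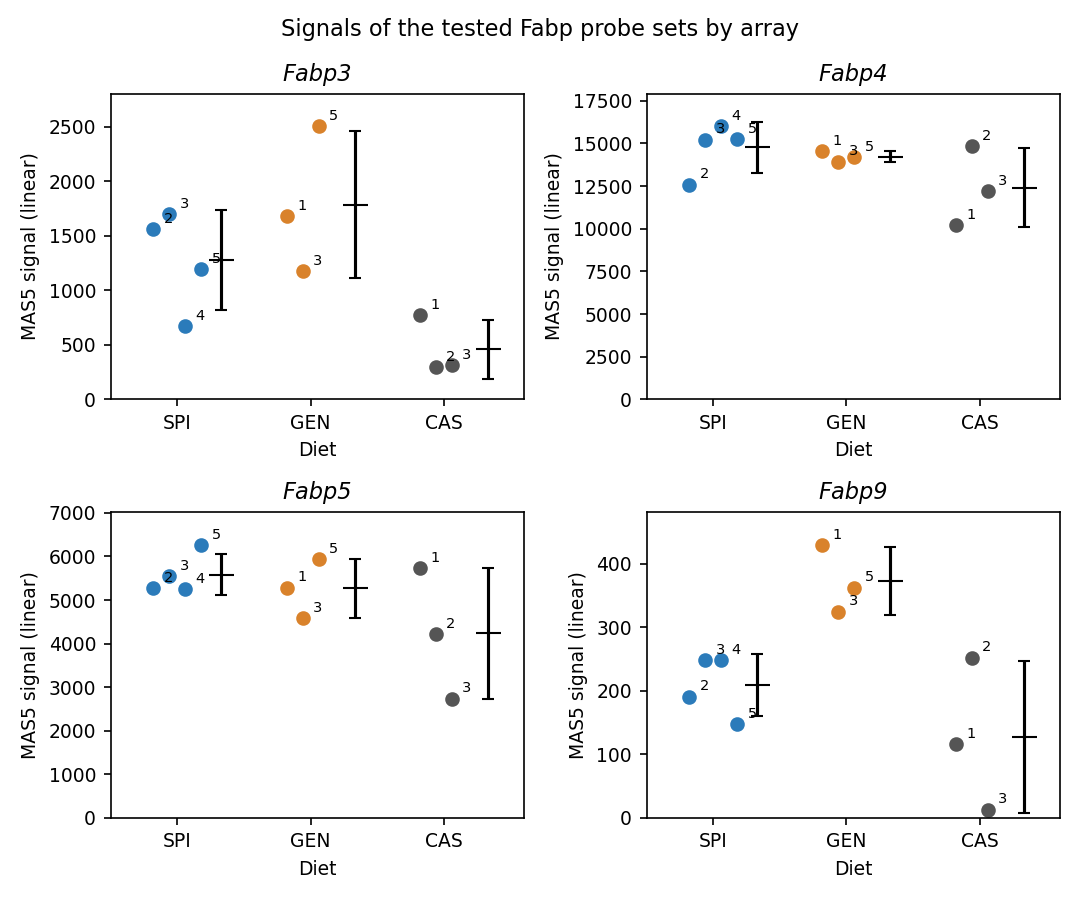
Signals of the 4 tested Fabp probe sets on every array (vertical axes, MAS5 signal, linear, from 0), with SPI, GEN and CAS arrays side by side. Points are arrays with their replicate numbers, and the black bars are the mean and SD of each diet. Fabp3 and Fabp9 separate the GEN from the CAS arrays, Fabp4 and Fabp5 overlap on all diets. Fabp9 passed the filter through its GEN arrays. Of all tested probe sets, 5.7% had GEN arrays wholly above the CAS arrays.

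Skeletal muscle also expresses Fabp3. The summed muscle markers were 2905 to 3481 on SPI, 3291 to 3673 on GEN and 3284 to 10631 on CAS. CAS 1 had the highest muscle sum of all arrays and the highest Fabp3 signal of the CAS diet. Without CAS 1 the log2 difference from CAS was 1.99 for SPI and 2.48 for GEN. In that setting the adjusted p in limma was 0.511 for SPI and 0.105 for GEN. Leaving out the CAS array with the highest Fabp3 signal enlarges both differences whatever its muscle content. The part of muscle in the Fabp3 values was not tested.

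Luminal epithelial markers, 13 on the array, had summed signals of 8458 to 17354 on SPI, 18853 to 24975 on GEN and 13527 to 22906 on CAS. The markers were thus brightest on GEN, as Fabp3 was, but SPI had a lower range of luminal markers than CAS. On SPI all 9 tested luminal markers had a log2 difference from CAS under 0, with a median of -0.34, while Fabp3 differed by 1.54. Basal epithelial markers, 7 on the array and 6 tested, had summed signals of 11539 to 15789 on SPI, 9292 to 15269 on GEN and 9381 to 12233.5 on CAS. Of the tested ones, 4 of 6 were above 0 for SPI against CAS and 5 of 6 for GEN against CAS, with medians of 0.15 and 0.42. Lgals7, a galectin of stratified epithelia, stood at 1.30 and the basal keratin Krt5 at 0.91 for GEN against CAS, and at 0.27 and 0.08 for SPI against CAS.

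By Spearman rank, Krt15 came second after Car2 among the genes most like Fabp3, followed by Acly, Tfrc and Dctpp1. Krt15 is a keratin of basal cells and skin and was on the keratinocyte list. Its signals were 1008, 1324, 282 and 1076.5 on SPI arrays 2, 3, 4 and 5. On GEN arrays 1, 3 and 5 they were 1844, 916 and 2084, and on CAS arrays 1, 2 and 3 they were 802, 488.5 and 407. As for Fabp3, every GEN array lay above every CAS array and SPI 4 lay far below the other SPI arrays. The other tested marker of the keratinocyte list, Krt1, went the other way. It stood at -0.17 for SPI and -0.52 for GEN against CAS, where Krt15 stood at 0.56 and 1.49. The part of luminal, basal or skin cells in the Fabp3 values was not tested.

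Fabp9, the testis lipid binding protein, had signals of 191, 248.5, 248 and 147 on SPI arrays 2, 3, 4 and 5. On GEN arrays 1, 3 and 5 it had 429.9, 324.5 and 362. On CAS arrays 1, 2 and 3 it had 116.5, 252 and 13. All GEN arrays lay above every array of both other diets, while SPI and CAS overlapped. CAS 3, at 13, was far below the other arrays.

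The mean of Fabp9 was 372 ± 53.4 on GEN (SD, n = 3) against 127 ± 119.9 on CAS (SD, n = 3). The log2 difference of GEN against CAS was 2.35 ± 0.75 (SE), with an interval of 0.72 to 3.98. Its adjusted p in limma was 0.825, and 0.286 to 0.993 over 19 alternatives. The difference was 1.11 without CAS 3. It was 1.49 ± 0.71 (SE) for SPI, which averaged 209 ± 49.1 (SD, n = 4), against CAS, with an adjusted p of 0.987 in limma, with 0.25 without CAS 3 and 2.39 without CAS 2. For SPI against GEN it was -0.86 ± 0.71 (SE), with an interval of -2.38 to 0.67 and an adjusted p of 0.757 in limma. The probe set passed the filter through its GEN arrays: over the 7 SPI and CAS arrays its geometric mean signal was 131, below 162, so the differences between GEN and the other diets support nothing about the family. In all, 7 of 10 arrays were at or above 162, and the sizes depended on the offset: with 32 added to each signal they were 1.70 for GEN and 0.93 for SPI against CAS.

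Fabp4, the adipocyte form, had signals of 12584, 15221, 16003 and 15233 on SPI arrays 2, 3, 4 and 5, and of 14538, 13926 and 14194 on GEN arrays 1, 3 and 5. On CAS arrays 1, 2 and 3 they were 10206, 14831 and 12186. The 3 diets overlapped, and the GEN arrays lay closest together, with a coefficient of variation of 2.16% against 18.7% on CAS. The probe set carries the suffix that Affymetrix uses for probes shared by several transcripts of a gene.

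Fabp4 averaged 14760.3 ± 1496 on SPI (SD, n = 4), 14219 ± 307 on GEN (SD, n = 3) and 12408 ± 2321 on CAS (SD, n = 3). The log2 difference was 0.26 ± 0.13 (SE) for SPI against CAS and 0.21 ± 0.14 for GEN against CAS, with adjusted p of 0.987 and 0.846 in limma. For SPI against GEN it was 0.05 ± 0.13, with an interval of -0.23 to 0.33. The intervals reached 0.54 at most, so a doubling of the signal on either diet lay outside them. The mean log2 signal of Fabp4 was above that of 99.56% of probe sets. Whether the signal follows the amount of RNA at that level was not tested. Without CAS 1 the differences were 0.13 for SPI and 0.08 for GEN against CAS, and without CAS 2 they were 0.40 and 0.35. Adipocyte markers, 9 on the array, had summed signals of 9016 to 12106 on SPI, 9867 to 14246.5 on GEN and 11571 to 11969 on CAS, and 2 of 6 tested ones were above 0 for SPI against CAS and 4 of 6 for GEN against CAS. Endothelial markers, also 9, had 21363.5 to 26935 on SPI, 19506 to 22880 on GEN and 17968 to 23650.1 on CAS, and 8 of 8 tested ones were above 0 for SPI and 5 of 8 for GEN relative to CAS. Macrophage markers, 10 on the array, had 6497 to 13175 on SPI, 7796 to 14674.5 on GEN and 8800.2 to 22099.8 on CAS, and 0 of 10 were above 0 for SPI against CAS (median -0.67) and 1 of 10 for GEN against CAS (median -0.51). The part of these cell types in the Fabp4 values was not tested.

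Fabp5, the epidermal form, had signals of 5273, 5552, 5242 and 6268 on SPI arrays 2, 3, 4 and 5. On GEN arrays 1, 3 and 5 it had 5282, 4585 and 5935.5, and on CAS arrays 1, 2 and 3 it had 5739, 4217.5 and 2738. The diets overlapped, and CAS was the most spread, with the lowest signal of the 10 arrays on CAS 3. Processed copies of the gene exist in the rat genome (Fabp5-ps2 and Fabp5-ps3), and their transcripts, if any, could bind the same probes.

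Fabp5 averaged 5584 ± 477 on SPI (SD, n = 4), 5267 ± 675 on GEN (SD, n = 3) and 4232 ± 1501 on CAS (SD, n = 3). The log2 difference was 0.46 ± 0.20 (SE) for SPI against CAS, with an interval of 0.03 to 0.89 and an adjusted p of 0.987 in limma. It was 0.37 ± 0.21 for GEN against CAS (adjusted p = 0.825 in limma) and 0.09 ± 0.20 for SPI against GEN. Without CAS 3 the differences from CAS were 0.18 for SPI and 0.09 for GEN, and without CAS 1 they were 0.71 and 0.62. Keratinocyte markers, of which 5 were on the array and 2 tested, had summed signals of 525 to 1640.3 on SPI, 1399 to 2361 on GEN and 785 to 1109.5 on CAS. Krt15 was the largest part of this sum on every array, and the 2 tested markers went opposite ways. Krt15 stood at 0.56 for SPI and 1.49 for GEN against CAS, and Krt1 at -0.17 and -0.52. The part of keratinocytes in the Fabp5 values was not tested.

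**Figure D2:**
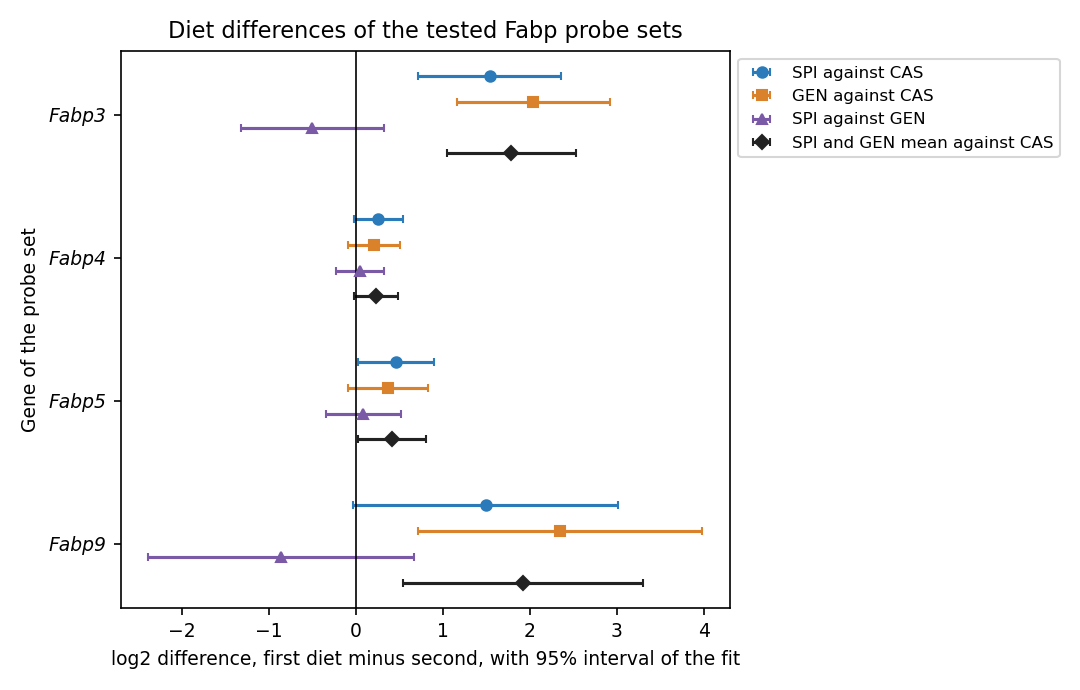
Differences of the 4 tested Fabp probe sets in 4 comparisons (horizontal axis, log2 difference of the first diet minus the second, with the 95% interval of the fit). The 3 comparisons with CAS share the CAS arrays. All 12 differences from CAS lie above 0, those of Fabp9 in a probe set that passed the filter through its GEN arrays, and none passed an adjusted p of 0.05.

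Without Fabp9, whose place among the tested members rests on its GEN arrays, 3 of 3 members had a log2 difference above 0 for SPI against CAS, where 47.7% of all probe sets did. For GEN against CAS 3 of 3 did as well, where 47.9% did, and both counts rest on the same CAS arrays. The median of the 3 was 0.46 for SPI and 0.37 for GEN against CAS, beside -0.01 over all probe sets in each. For SPI against GEN, 2 of 3 were above 0, where 49.2% were, with a median of 0.05. No member passed an adjusted p of 0.05 in any comparison, nor did any of the 9520 probe sets (percent called 0). At an unadjusted p under 0.05, limma gave 459 probe sets (4.82%) between SPI and CAS, 561 (5.89%) between GEN and CAS and 757 (7.95%) between SPI and GEN. Without the intensity trend these counts were 449, 537 and 761, and the adjusted count was again 0 in each.

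At that unadjusted threshold 2 of these 3 members, Fabp3 and Fabp5, were above CAS on SPI, where 1.53% of probe sets were. On GEN there was 1, Fabp3, where 2.7% were. For the mean of both diets there were 2, Fabp3 and Fabp5, where 1.64% were. The GEN arrays lay wholly above the CAS arrays for 1 of the 3, Fabp3, where 5.7% of probe sets did, and the SPI arrays for 0, where 1.78% did. The SPI arrays lay wholly below the GEN arrays for 0 of the 3, where 4.37% of probe sets did. Fabp9 was below 0.05 unadjusted for GEN against CAS and for the mean of both diets. It passed the filter through those same GEN arrays, so these p-values are not counted here. With so few members, chosen with these results known, such shares describe the family and do not test it.

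Fabp1, Fabp2, Fabp6, Fabp7 and Fabp12 did not pass the filter, and no fold is given for them. Their highest signals on any array were 32.5 for Fabp1, 67.5 for Fabp2, 58.9 for Fabp6, 30.6 for Fabp7 and 94.8 for Fabp12. None of their 50 values reached 162, which is the cut of the filter and not a limit of detection. The data hold no detection calls, so whether transcripts of these 5 genes were present was not tested. Fabp6 had 4.8, 38.3, 3.2 and 15.7 on SPI arrays 2, 3, 4 and 5, against 58.9, 53.1 and 51.8 on GEN arrays 1, 3 and 5. On CAS arrays 1, 2 and 3 it had 7.7, 8.1 and 46.3, so its GEN arrays lay above all others, at signals of the dim range. How often dim probe sets separate in this way was not counted. Tested without any filter, the smallest adjusted p in limma of these 5 was 0.609, for Fabp6 in SPI against GEN.

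**Figure D3:**
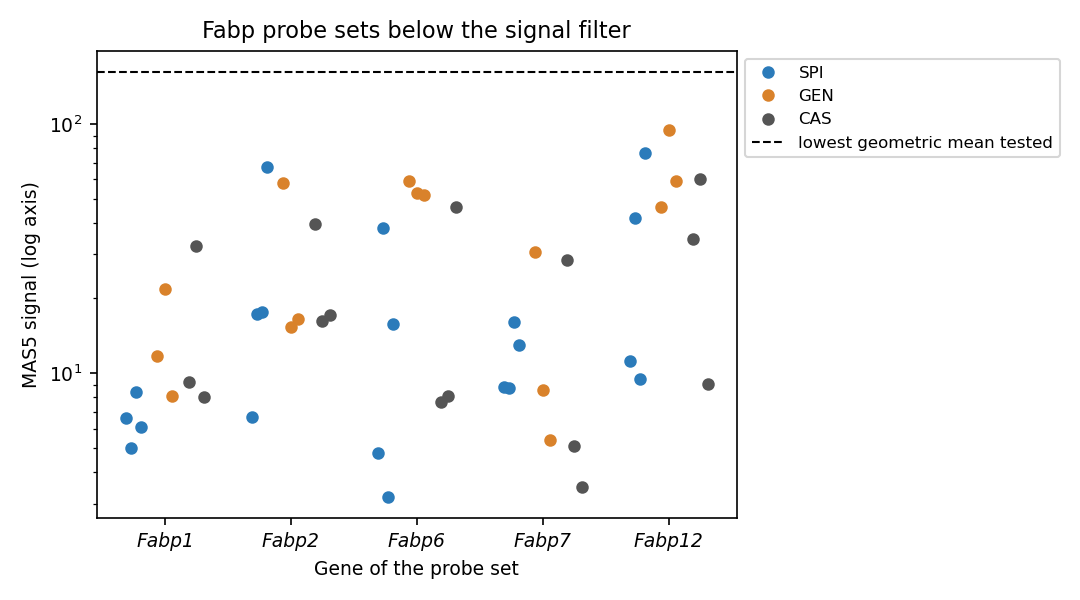
Signals of the 5 Fabp probe sets below the filter on every array (vertical axis, MAS5 signal, log axis), with SPI, GEN and CAS arrays left to right for each gene. The dashed line is the lowest geometric mean signal tested, 162, and all 50 points lie below it.

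Among the 4 tested members, 6 pairs were compared across the 10 arrays, and none varied together past an adjusted p of 0.05. The permutations shuffled all 10 arrays without regard to diet or shared pools, so a diet difference common to both genes can lower these p-values. The pairs with Fabp9 hold a member that passed the filter through its GEN arrays. Fabp3 and Fabp5 had an r of 0.73 by Pearson (permutation p = 0.0125, Benjamini-Hochberg over the 6 pairs 0.0750) and a Spearman rho of 0.68 (permutation p = 0.0339, adjusted 0.203). Without CAS 2 and CAS 3, the arrays farthest from the Fabp3 median, r was 0.18. Over deviations from the diet means it was 0.63, and without CAS 3 alone it was 0.62, so its size depended on which arrays were kept. Fabp5 and Fabp9 had an r of 0.73 (permutation p = 0.0808, adjusted 0.162) but a rho of 0.07 (permutation p = 0.865, adjusted 0.865), and r was -0.45 without CAS 2 and CAS 3. Fabp3 and Fabp9 had an r of 0.61 (permutation p = 0.0512, adjusted 0.154) and a rho of 0.48 (permutation p = 0.166, adjusted 0.497), with r at 0.55 without the same arrays and 0.13 over deviations from the diet means.

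The gene neighbours Fabp4 and Fabp9 had an r of 0.50 (permutation p = 0.128, adjusted 0.192) and a rho of 0.30 (permutation p = 0.409, adjusted 0.817). That r was -0.04 without CAS 1 and CAS 3. Fabp4 and Fabp5 had an r of 0.21 (permutation p = 0.526, adjusted 0.631) and a rho of 0.19 (permutation p = 0.608, adjusted 0.865), and r was 0.13 without CAS 1 and CAS 3. Fabp3 and Fabp4 had an r of 0.18 (permutation p = 0.633, adjusted 0.633) and a rho of 0.09 (permutation p = 0.810, adjusted 0.865), with r at 0.21 without CAS 2 and CAS 3. Within the diets this last r was -0.65: SPI 4, for example, had the lowest Fabp3 and the highest Fabp4 signal of its diet.

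The genes whose log2 signals ran most like Fabp3 over the 10 arrays, among 7118 other genes, were Car2, Tfrc, Fads2, Apod and G0s2. Car2, a carbonic anhydrase, had a Pearson r of 0.97, and its r was 0.96 without CAS 2 and CAS 3 and 0.92 over deviations from the diet means. Its signals were 899.5, 964, 393 and 729 on SPI arrays 2, 3, 4 and 5, and 702.5, 628 and 1206 on GEN arrays 1, 3 and 5. On CAS arrays 1, 2 and 3 they were 396, 269.6 and 274. Like Fabp3, Car2 was lowest on CAS, highest on GEN 5 and, within SPI, lowest on SPI 4.

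Tfrc, the transferrin receptor of iron uptake, had an r of 0.95 with Fabp3, and Fads2, a desaturase of polyunsaturated fatty acids, had 0.90. Apod, a lipid-carrying apolipoprotein, also had 0.90, and G0s2, an inhibitor of the triglyceride lipase of fat cells, had 0.89. Over deviations from the diet means, these r values were 0.85 for Tfrc, 0.72 for Fads2, 0.75 for Apod and 0.85 for G0s2. Another tested probe set of Car2 had an r of 0.86 with Fabp3 and another of Tfrc had 0.69. These 5 genes were the most alike of many, with 10 arrays that share the diet differences, so the r values are descriptions without a test.

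**Figure D4:**
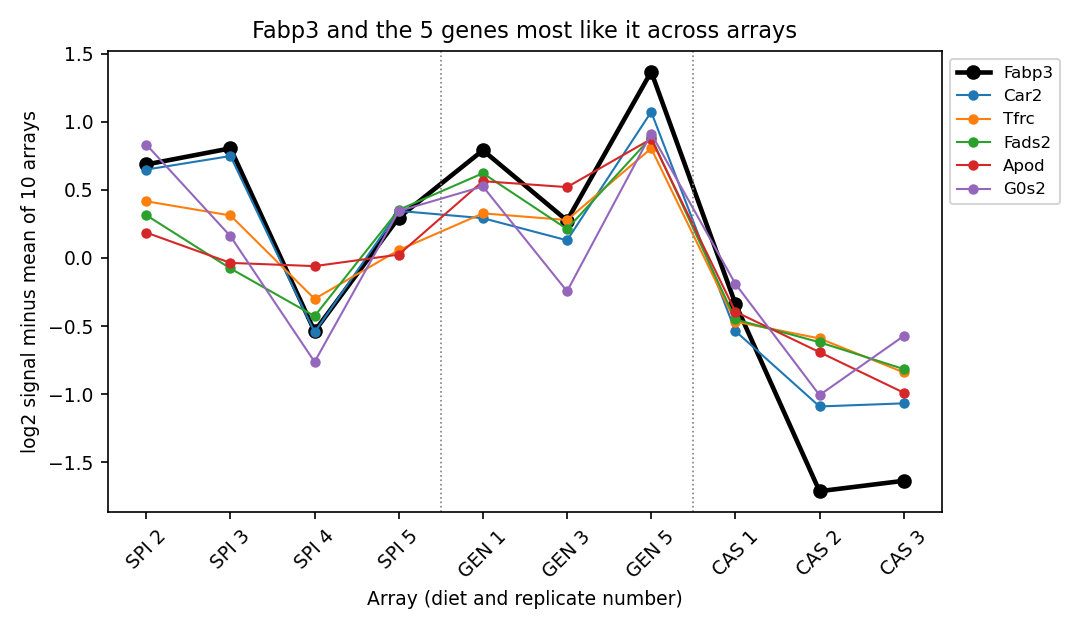
Log2 signal minus the mean of the 10 arrays (vertical axis) for Fabp3 and the 5 genes most like it, over the SPI, GEN and CAS arrays (horizontal axis, separated by dotted lines). Each line is a gene, and Fabp3 is black. All 6 genes dip on SPI 4 relative to SPI 2 and peak on GEN 5 among the GEN arrays.

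The genes most like Fabp4 were Hsd11b2 (r = 0.94), Gng11 (0.91), Jcad (0.89), Mertk (0.88) and Dgkb (0.88). Hsd11b2 inactivates glucocorticoids and Jcad is a junction protein of endothelium. Their r values without CAS 1 and CAS 3 were 0.83, 0.86, 0.78, 0.60 and 0.41, in the same order. The genes most like Fabp9 were Chrna7 (0.96), Ppp1r10 (0.95), Ints6 (0.94), Sat1 (0.92) and Edrf1 (0.92), and all 5 had their lowest signal on CAS 3. Without CAS 1 and CAS 3 they stood at 0.45, 0.81, 0.68, 0.76 and 0.53. The genes most like Fabp5 were Gspt1 (0.90), the glucose transporter Slc2a1 (0.90), Zbtb2 (0.89), the desmosomal gene Dsp (0.87) and Hipk3 (0.87). They also had their lowest signal on CAS 3, and their r values were 0.30 to 0.57 without CAS 2 and CAS 3. Other probe sets of these genes, all below the signal filter, did not show the likeness: r was -0.00038 for Mertk with Fabp4, 0.16 for Zbtb2 and -0.09 and -0.42 for Hipk3 with Fabp5, and 0.37 for Ints6 with Fabp9.

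Genes of the steps around these proteins were read from lists. In no list did a member pass an adjusted p of 0.05 in any comparison, so the following are values that did not pass. The relatives that bind retinoids had 2 tested genes: Crabp2, the retinoic acid carrier, stood at 0.53 for GEN against CAS but -0.70 as SPI minus GEN, and Rbp7 at 0.08 and -0.13. Of the uptake and activation genes, 12 of 13 were above 0 for GEN against CAS and 7 of 13 for SPI against CAS, with medians of 0.11 and 0.01. Dbi, the acyl-CoA binding protein, stood at 0.35 and Acsl1, which activates fatty acids, at 0.78 for GEN against CAS. Cav1, the caveolin of the cell membrane, stood at 0.21 for SPI and 0.19 for GEN against CAS. For SPI against GEN, Acsl1 stood at -1.04 and the fatty acid receptor Cd36 at -0.57.

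The nuclear receptors had 5 tested genes, 3 above 0 in each comparison with CAS. Pparg, the adipocyte receptor that acts on Fabp4, stood at 0.19 ± 0.16 (SE) for SPI and 0.22 ± 0.17 for GEN against CAS. Lipid droplet and lipolysis genes were above 0 in 7 of 9 for SPI and 3 of 9 for GEN against CAS, with medians of 0.14 and -0.07. G0s2 stood at 0.73 for SPI and 0.99 for GEN against CAS. The droplet coat gene Plin2 stood at 0.70 for GEN against CAS and at -0.54 for SPI against GEN. Plin3 of the same list stood at -0.40 for GEN against CAS. Lipe stood at 0.72 for SPI against GEN, where 5 of 9 genes of the list were above 0.

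Fatty acid oxidation genes were above 0 in 6 of 19 for SPI and 12 of 19 for GEN relative to CAS, and in 3 of 19 between SPI and GEN. Their medians were -0.12, 0.11 and -0.17. Acaa2, a thiolase of the mitochondria, stood at -0.81 and Pdk4, a kinase that limits glucose oxidation, at -1.09 for SPI against GEN. Cpt1a, the gate of mitochondrial uptake, stood at -0.33 for SPI and -0.31 for GEN against CAS, and Acadm, an acyl-CoA dehydrogenase, at 0.35 for GEN against CAS. Fabp3 stood above CAS on SPI while 13 of 19 oxidation genes stood below it, none of them at an unadjusted p under 0.05 in limma. Of all tested probe sets, 47.7% stood above CAS on SPI. The relation of Fabp3 to the oxidation genes was not tested.

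Synthesis genes were above 0 in 9 of 15 for SPI and 12 of 15 for GEN against CAS, with medians of 0.17 and 0.27. Fads2 stood at 0.67 ± 0.24 (SE) for SPI and 1.20 ± 0.25 for GEN against CAS, and Thrsp, a promoter of lipid synthesis, at 0.51 and 0.80. Elovl5, an elongase, stood at 0.34 for GEN against CAS, and the fatty acid synthase Fasn at -0.78 for SPI against GEN. Milk fat and milk protein genes were above 0 in 4 of 10 for SPI against CAS and in 8 of 10 for GEN against CAS, with medians of -0.04 and 0.74. Wap, a whey protein gene of milk, stood at 1.44 ± 0.35 (SE) for GEN against CAS, with -2.06 ± 0.33 as SPI minus GEN. Lalba, the alpha-lactalbumin gene, stood at -0.76 ± 0.22 (SE) and Xdh, needed for milk fat secretion, at -0.60 ± 0.19 for SPI against CAS, where Fabp3 stood at 1.54. The next by p in that comparison, Mfge8, went the other way, at 0.34 ± 0.14 (SE). The relation of Fabp3 to the milk genes was not tested.

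**Figure D5:**
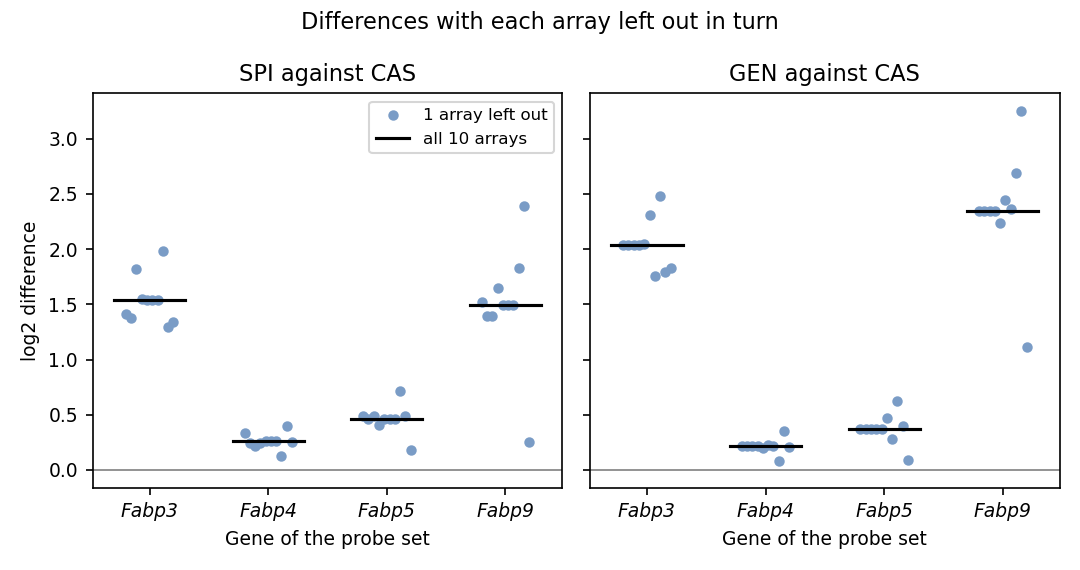
Log2 differences of the 4 tested Fabp probe sets (vertical axis) for SPI against CAS and GEN against CAS, with all 10 arrays (black lines) and with each array left out in turn (points). Fabp3 keeps between 1.30 and 1.99 for SPI and between 1.76 and 2.48 for GEN, while Fabp9 goes down to 0.25 for SPI and 1.11 for GEN without CAS 3.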

How the data were processed

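For the 10 arrays, 1 table deposited by the authors holds an intensity for each probe set. The submitters' processing notes name MAS5, with no version. The values looked globally scaled, with a trimmed mean of about 500.1 on every array, and held no detection calls. The 57 control probe sets were left out. Signals under 1 (0.0637% of values) were set to 1 before log2. Symbols came from the platform annotation (12783 probe sets with 1 symbol, 312 with several, 2771 with none), and 0 changed when updated through RefSeq. The lowest 40% of mean log2 signal was left out. limma 3.58.1 in R 4.3.3 (lmFit, eBayes with trend) fitted all 10 arrays, with 7 residual degrees of freedom. Correlations used 100000 permutations. The fit was also run on simulated data with 9520 probe sets. Of changes of 1 log2 unit, 82% were recovered between SPI and CAS, 69% between GEN and CAS and 81% between SPI and GEN. False calls were 7 of 189, 13 of 181 and 6 of 185 calls, in the same order. The simulated noise was independent between probe sets, without shared pools or outlying arrays, so these shares do not carry over to the real arrays. Replicate numbers showed little sign of pairing the arrays: deviations correlated above 0.1 in 1 of 6 same-numbered pairs. So few pairs cannot settle whether same-numbered arrays were processed together. Named were all Fabp probe sets, of each list the members with the smallest p in a comparison, and the 5 genes most like each member. The members and lists were chosen with earlier results of these data known, and the motifs with the sequence in view. No scan or hybridisation batch is given in the labels.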

Additional observations from a re-analysis of the deposited data

How the results depend on the processing

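Each comparison was repeated under 20 alternatives: other scaling, filters, offset, variance models, array weights, the actin ratio as a covariate, a replicate block and each array left out. Fabp9 was not tested with the lowest 60% left out, since it fell below that filter. Of 316 values of Fabp members, 0 were called, and all 237 against CAS stayed above 0. These refits reuse the same arrays, and the mean of both diets is built from the single-diet comparisons. The 237 are therefore not independent repeats. They include Fabp9, which passed the filter through its GEN arrays, and no such count was made over all probe sets. The sign turned for 3 in SPI against GEN: 0.0381 for Fabp3 (main value -0.50) and -0.0574 for Fabp4 (0.05) with the replicate block, and -0.00779 for Fabp5 without GEN 3 (0.09; to 0.18 over single arrays left out). With the replicate block Fabp3 stood at 1.95 for SPI and 1.91 for GEN against CAS, and it changed no call. The cause was not tested.

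Over all probe sets, calls were 2 for GEN against CAS and 1 for the mean of both diets with the lowest 60% left out or with robust eBayes. With array weights they were 2 between GEN and CAS and 2 between SPI and GEN. Apod, whose signal ran like that of Fabp3, was among the calls between GEN and CAS under each of these settings and was the call without CAS 1. Leaving out single arrays gave 0 to 2 calls between SPI and CAS, 0 to 1 between GEN and CAS, 0 to 1 between SPI and GEN and 0 to 2 in the F test. The calls came without SPI 2 (2 between SPI and CAS, 1 between SPI and GEN, 2 in the F test), CAS 1 (1 between GEN and CAS), and GEN 5, CAS 2 or CAS 3 (1 each between SPI and GEN, and 1 in the F test without GEN 5 or CAS 2). Unadjusted counts ran from 270 to 776 between SPI and CAS, 353 to 884 between GEN and CAS and 286 to 1213 between SPI and GEN. With arrays centred on their medians, the share higher at an unadjusted p under 0.05 was 63.3% against 31.8% for SPI against CAS, and 69.2% against 46.5% for SPI against GEN.

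Pearson r turned sign within diets for Fabp3 and Fabp4 (-0.65) and Fabp4 and Fabp5 (-0.23), without the 2 farthest arrays for Fabp4 and Fabp9 (-0.0361) and Fabp5 and Fabp9 (-0.45), and without CAS 3, chosen after seeing the data, for Fabp4 and Fabp5 (-0.14) and Fabp5 and Fabp9 (-0.35). By Spearman rank, 2 of the 5 genes most like Fabp3 were shared, and 1 of 5 for each other member. Each Fabp gene had 1 probe set, so averaging probe sets was not run.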
